A study of Mus musculus with 23 samples.

Results

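The genes examined here encode 10 pattern recognition receptors of mouse neutrophils, picked by name: *Cd14*, *Tlr2*, *Tlr4*, *Tlr6* and *Tlr13* of the Toll-like receptor (TLR) system, the C-type lectin receptors *Clec4d*, *Clec4e* and *Clec7a*, and the cytosolic sensors *Nod1* and *Nod2*. All 10 were listed among the 21878 genes of the sorted neutrophil tables and among the 55335 genes of the whole-lung table. Pattern recognition receptors bind molecules that microbes carry or that damaged cells release. TLRs signal from the cell surface or from endosomes through adaptors such as MyD88, C-type lectin receptors signal through SYK and CARD9, and NOD proteins detect peptidoglycan fragments in the cytosol through RIPK2. All of these routes reach NF-κB, which also switches on their own inhibitors. Neutrophils use these receptors to start phagocytosis, cytokine release and the oxidative burst.

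Bulk RNA-Seq of 23 libraries was used. Neutrophils of WT mice were sorted from lung, peripheral blood (PB) and bone marrow (BM), with 3 libraries each. A second experiment compared genotypes, WT and *Piezo1*-cKO, in neutrophils sorted from both lung and PB, with 2 libraries per genotype and tissue. These cKO mice carry *Piezo1* fl/fl and the Vav1-iCre driver, which acts in all blood cell lineages and not in neutrophils alone, and PIEZO1 is a mechanically gated cation channel. In another experiment, whole lungs of mice given a neutrophil-depleting anti-Ly6G antibody were set against control lungs, with 3 libraries each. Control mice of that experiment received an isotype antibody, per the study's methods. Sorted cells were CD45+CD11b+Ly6G+. The general protocol of the study cuts lungs and digests them with warm collagenase, a step that PB and BM cells do not pass, and PB and lung cells, but not BM cells, went through a negative selection kit before the sort. Tissue and these handling steps cannot be told apart here. The study's methods name C57BL/6J as the purchased strain and young adult mice of both sexes for the study in general, without giving strain, age or sex per library. The whole-lung libraries may be from younger mice, since the study introduces them right after neutrophil depletion in early life. Their age is not stated. The 3 libraries per tissue of the first experiment are described there as separate mice. For the *Piezo1* and depletion experiments the RNA-Seq descriptions give no number of mice, so their p-values measure the spread between libraries that may be technical replicates.

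Values are FPKM, read fragments scaled to the length of the gene and to the size of the library, so that levels can be compared between genes. Differences are means of log2(FPKM + 1) with their SE, tested with limma across all genes that passed a filter on low values, and adjusted p is the Benjamini-Hochberg value over all those genes. A gene is called, and is said to rise or fall, when adjusted p is below 0.05 and the difference is above 1 in size. The sorted libraries held 9621002 to 19330763 reads in genes, as recovered from the FPKM values, so that even the scarcest receptor rested on 282 reads or more. The 7 neutrophil markers summed to 42928 to 47140 FPKM in WT lung, 56257 to 72924 in WT PB and 127202 to 145125 in WT BM. Of these 7, 6 were called lower in lung than in BM and 1 higher (*Csf3r*), beside 36.0% of all genes lower and 9.86% higher. After each library was rescaled by its median ratio, 3 were called lower and 1 higher, beside 14.5% and 19.6% of all genes. *Ly6g* itself was at 53.0 to 55.7 FPKM in lung. The 13 monocyte and macrophage markers summed to 201 to 205 FPKM in WT lung, 272 to 320 in WT PB and 681 to 821 in WT BM, and 8 of them stayed below 1 FPKM in lung. The dendritic, B, T, platelet and endothelial lists each summed to 6.53 FPKM or less in all sorted libraries, and 4 epithelial markers to 23.9 FPKM or less. Erythroid markers stood apart in 1 group, *Piezo1*-cKO PB, with 910 to 972 FPKM against 20.8 to 20.95 in WT PB of that experiment and 4.64 or less in its lung libraries. Within the WT PB group of the first experiment, library 3 differed from the others by more than those differed from each other: chi-square per degree of freedom over genes was 24.6 and 41.0 for the pairs with library 3 and 4.72 for the remaining pair.

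*Cd14* was the most abundant receptor mRNA in lung neutrophils and close to the least abundant in BM neutrophils. CD14 captures lipopolysaccharide and hands it to the TLR4 complex, and it also serves TLR2. Its level was 10.8, 11.0 and 11.3 FPKM in the 3 BM libraries, 171, 162 and 147 FPKM in PB, and 3979, 3873 and 3844 FPKM in lung. Each tissue formed its own range, far from the next, although non-overlap by itself was common: ranges stayed apart for 86.2% of all genes tested in lung against PB, 92.9% in lung against BM and 76.8% in PB against BM. The lung mean was 24.3 times the PB mean and 353 times the BM mean. On the log2 scale the lung-PB difference was 4.60 ± 0.07 (SE, n = 3 per group, adjusted p = 1.16e-09, limma). The PB-BM difference was 3.74 ± 0.06 (adjusted p = 8.22e-09, limma).

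*Tlr4*, which encodes the lipopolysaccharide receptor that CD14 serves, went the other way. Its level was 14.9, 14.5 and 15.8 FPKM in BM, 24.6, 23.7 and 25.5 FPKM in PB, and 8.52, 8.005 and 8.59 FPKM in lung. PB libraries were highest, lung libraries lowest, and no ranges overlapped. *Tlr4* fell by 1.45 ± 0.06 from PB to lung (adjusted p = 2.01e-07, limma). That call depends on the scale, because the median of all 7577 genes tested was itself at -0.54 in this comparison. After rescaling each library by its median ratio, the *Tlr4* difference was -0.87, with the direction kept and the call lost. Relative to the median of all genes it was -0.91. *Tlr4* spans chr4:66827584-66930284 on the plus strand of GRCm38.

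Ratios of receptors within a library do not depend on that scale. The FPKM ratio of *Cd14* to *Tlr4* was 0.73 ± 0.02 (SD, n = 3) in BM, 6.53 ± 0.65 in PB and 466 ± 18.1 in lung. *Cd14* thus went from below *Tlr4* in BM to far above it in lung. *Ly96* encodes MD-2, the partner that TLR4 needs to bind lipopolysaccharide, and was picked out after its values were seen. It was at 4.35 to 8.14 FPKM in lung and 12.2 to 15.3 in PB, a difference of -0.96 ± 0.20 that missed the size threshold. Unlike the ratios, this difference depends on the scale. The median of all genes was -0.54 there, and that of the 8 TLR co-receptors and chaperones tested, *Ly96* among them, was -0.68.

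**Figure D1:**
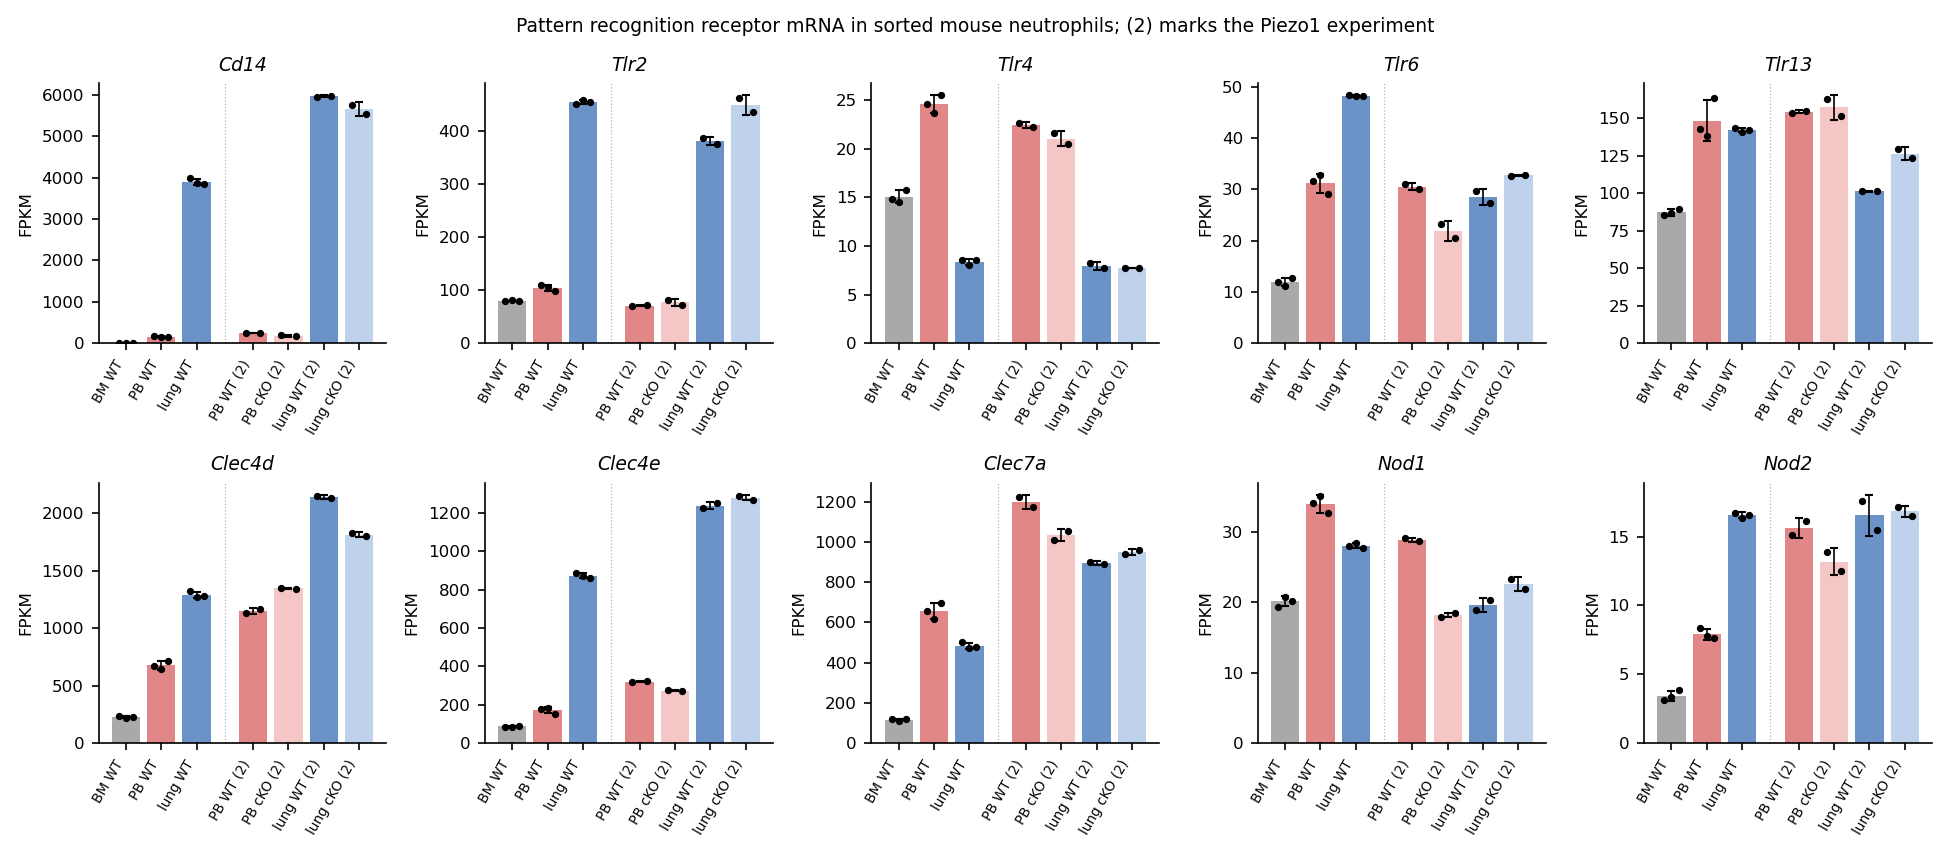
FPKM of the 10 receptors in 17 libraries of sorted neutrophils. Bars are group means on linear axes from 0, error bars are SD, points are libraries, and the dotted line separates the tissue comparison (n = 3) from the *Piezo1* experiment (n = 2, marked 2). *Cd14*, *Tlr2* and *Clec4e* stand highest in all lung groups, and *Tlr4* stands lowest there.

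TLR2 recognises bacterial lipoproteins as a dimer with TLR6 or TLR1. *Tlr2* was at 80.1, 80.7 and 80.1 FPKM in BM, 109, 106 and 99.0 in PB, and 449.7, 458 and 455 in lung. BM and PB lay close to each other, and the lung mean was 4.35 times the PB mean. The lung-PB difference was 2.11 ± 0.05 (adjusted p = 1.60e-08, limma), and that between PB and BM, 0.37 ± 0.05, was below the size threshold. *Tlr6* was at 12.0, 11.2 and 12.8 FPKM in BM, 31.6, 32.8 and 29.1 in PB, and 48.3, 48.2 and 48.2 in lung. Its 3 tissues did not overlap either, but the larger step came between BM and PB, where *Tlr6* rose by 1.31 ± 0.07 (adjusted p = 1.02e-06, limma). From PB to lung the difference was 0.61 ± 0.06, which is under the size threshold on this scale and 1.22 after rescaling, where it was called. The *Tlr2* to *Tlr6* ratio was 6.71 ± 0.46 (SD, n = 3) in BM, 3.36 ± 0.12 in PB and 9.42 ± 0.11 in lung, so PB neutrophils held the most *Tlr6* for their *Tlr2*. Of the 50-base words in *Tlr6* transcripts, 12.3% also occur in transcripts of *Tlr1* or Ctsq. Reads from those stretches could be split or dropped by the counting. *Tlr1* itself was at 4.39 to 4.83 FPKM in lung and 4.29 to 5.48 in PB. No other receptor shared more than 0.259% of its words, and no annotated gene overlapped any of the 9 receptors whose positions were compared, *Cd14* not being among them. *Tlr2* lies at chr3:83836272-83841767 and *Tlr6* at chr5:64952031-64960097, both on the minus strand of GRCm38.

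*Tlr13* encodes an endosomal sensor of bacterial ribosomal RNA. It was at 85.3, 86.8 and 89.6 FPKM in BM, 142, 138 and 164 in PB, and 143, 141 and 142 in lung. Lung fell inside the PB range, and both stood above BM. The lung-PB difference was -0.06 ± 0.07 (adjusted p = 0.46, limma), and its sign turned to 0.56 after rescaling. The PB-BM difference of 0.75 ± 0.07 missed the size threshold. *Tlr13* lies at chrX:106143204-106160493, plus strand.

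*Clec4d* and *Clec4e* are neighbours. *Clec4d* spans chr6:123262111-123275265 on the plus strand and *Clec4e* spans chr6:123281789-123289870 on the minus strand of GRCm38, with 6523 bases and no protein-coding gene between them. They encode MCL and Mincle, receptors for mycobacterial cord factor that pair at the cell surface. *Clec4d* was at 232, 216 and 223 FPKM in BM, 670.1, 643 and 718 in PB, and 1322, 1276 and 1277 in lung. *Clec4e* was at 84.7, 86.1 and 89.8 FPKM in BM, 178, 183 and 153 in PB, and 887, 869.6 and 862 in lung. Both were ordered BM, PB, lung without overlap, but the steps were unequal. From BM to PB, *Clec4d* rose by 1.59 ± 0.06 (adjusted p = 1.63e-07, limma) and *Clec4e* differed by 0.97 ± 0.08, just under the size threshold, and by 1.05 without PB library 3, where it was called. From PB to lung, *Clec4e* rose by 2.35 ± 0.07 (adjusted p = 5.66e-08, limma) and *Clec4d* differed by 0.93 ± 0.06, again just under it. The *Clec4e* to *Clec4d* ratio was 0.39 ± 0.02 (SD, n = 3) in BM, 0.25 ± 0.04 in PB and 0.68 ± 0.01 in lung. These ratios compare transcripts per length within each library, and in lung every library lay above every BM and PB library.

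The promoters of this adjacent pair and of *Tlr2* are shown. On the FPKM scale *Clec4e* and *Tlr2* were called higher in lung than in PB and *Clec4d* was not. After rescaling all 3 were called. The sequences are the 250 bases before the RefSeq transcription start in GRCm38.p6, in the direction of transcription, for *Clec4e* at chr6:123289872-123290121 (minus strand), for *Clec4d* at chr6:123261857-123262106 (plus strand) and for *Tlr2* at chr3:83841609-83841858 (minus strand). Capitals mark matches on either strand to the letters of AP-1 (TGANTCA), C/EBP (TTGCNNAA), PU.1 (GAGGAA), NF-κB (GGGA and TTCC with any 2 bases between) and the TATA box (TATAAA), none of which overlap here.
Clec4e: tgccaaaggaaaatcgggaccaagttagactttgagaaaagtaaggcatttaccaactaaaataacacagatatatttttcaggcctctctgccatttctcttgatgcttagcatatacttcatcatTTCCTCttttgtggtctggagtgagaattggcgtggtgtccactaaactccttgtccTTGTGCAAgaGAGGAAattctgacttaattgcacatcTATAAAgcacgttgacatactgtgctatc
Clec4d: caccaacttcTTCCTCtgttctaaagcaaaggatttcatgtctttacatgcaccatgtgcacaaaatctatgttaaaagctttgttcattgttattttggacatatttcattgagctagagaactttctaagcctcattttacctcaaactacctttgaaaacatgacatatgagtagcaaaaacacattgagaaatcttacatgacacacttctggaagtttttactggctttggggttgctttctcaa
Tlr2: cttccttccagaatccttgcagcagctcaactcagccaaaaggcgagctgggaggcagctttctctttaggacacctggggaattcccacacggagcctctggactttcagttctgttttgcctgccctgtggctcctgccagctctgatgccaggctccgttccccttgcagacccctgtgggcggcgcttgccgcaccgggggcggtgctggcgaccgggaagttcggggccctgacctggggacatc
In the *Clec4e* window there were PU.1 letters 118 to 123 and 51 to 56 bases before the start, C/EBP letters 59 to 66 bases before it and TATA letters 24 to 29 bases before it. The *Clec4d* window held PU.1 letters alone, 235 to 240 bases before the start, and the *Tlr2* window held none of these exact letters. Other spellings of the sites were not searched. Among them are further forms of the NF-κB site such as GGGAATTCCC, which the *Tlr2* window holds unmarked. Among all 32851 RefSeq promoter windows of the same length, 23.3% held the PU.1 letters, 9.56% the C/EBP letters, 12.4% the TATA letters, 6.75% the AP-1 letters and 1.21% the NF-κB letters. Matches are a description of these letters and not of binding.

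*Clec7a* encodes Dectin-1, the receptor for fungal β-glucan. Its level was 117, 112 and 118 FPKM in BM, 657, 619 and 696 in PB, and 502, 473 and 476 in lung. PB was highest, lung lay between, and no ranges overlapped. *Clec7a* rose by 2.49 ± 0.06 from BM to PB (adjusted p = 2.09e-08, limma). The lung-PB difference was -0.44 ± 0.06 (adjusted p = 0.000197, limma), below the size threshold, and turned to 0.18 after rescaling. *Clec7a* lies at chr6:129461591-129472779, minus strand, 6171720 bases beyond *Clec4e*.

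The NOD genes also parted. NOD1 binds a peptidoglycan fragment of mostly Gram-negative bacteria and NOD2 binds muramyl dipeptide, which most bacteria carry. *Nod2* was at 3.12, 3.33 and 3.85 FPKM in BM, 8.34, 7.76 and 7.61 in PB, and 16.7, 16.4 and 16.6 in lung. *Nod1* was at 19.4, 20.8 and 20.3 FPKM in BM, 34.1, 35.1 and 32.6 in PB, and 28.0, 28.4 and 27.7 in lung. *Nod2* thus followed the order BM, PB, lung, while *Nod1* was highest in PB. *Nod2* rose by 1.01 ± 0.08 from BM to PB (adjusted p = 1.27e-05, limma), at the edge of the size threshold: the difference was 0.98 without PB library 1, 0.96 without BM library 1 and 0.99 without BM library 2. From PB to lung it differed by 0.98 ± 0.06 (adjusted p = 1.82e-06, limma), below the threshold, and by 1.02 without PB library 1, where it was called. The lung-PB difference of *Nod1* was -0.27 ± 0.05 and turned to 0.34 after rescaling. The *Nod2* to *Nod1* ratio was 0.17 ± 0.02 (SD, n = 3) in BM, 0.23 ± 0.01 in PB and 0.59 ± 0.01 in lung. *Nod1* lies at chr6:54923949-54972612 (minus strand) and *Nod2* at chr8:88647315-88688474 (plus strand) in GRCm38.

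**Figure D2:**
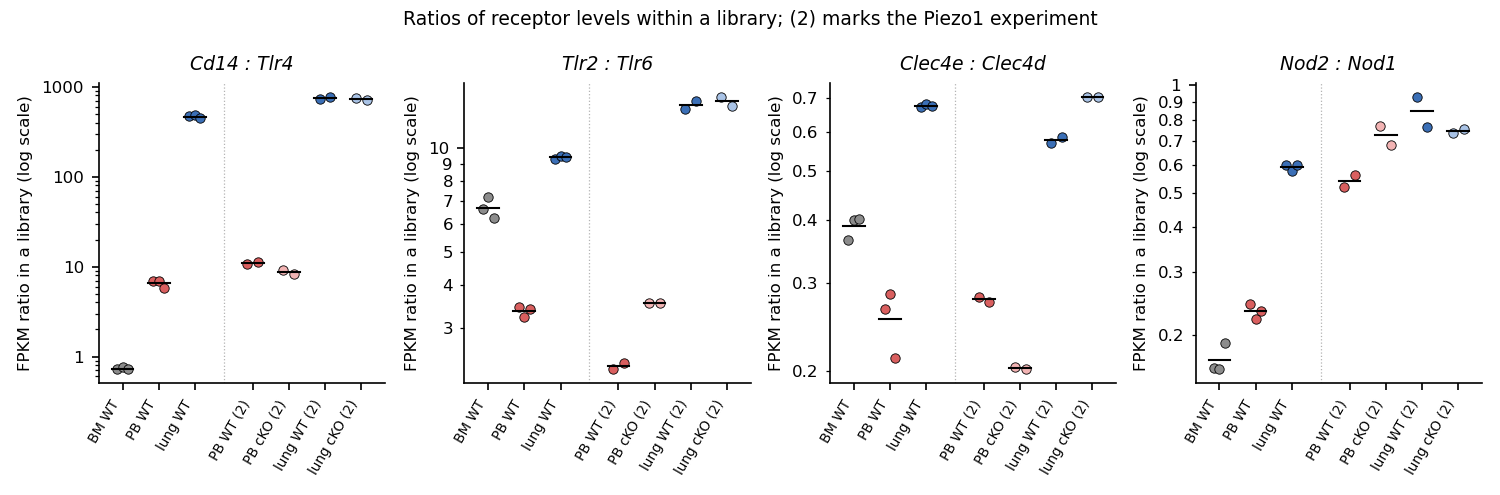
Ratios of FPKM within each library for 4 receptor pairs, on log axes. Points are libraries, short lines are group means, and the dotted line separates the tissue comparison from the *Piezo1* experiment (marked 2). The *Cd14* to *Tlr4* ratio reaches 466 in WT lung against 6.53 in WT PB, and all 4 ratios are higher in WT lung than in WT PB of the same experiment.

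Counted together, 3 of the 10 receptors rose from PB to lung (*Cd14*, *Clec4e* and *Tlr2*) and 1 fell (*Tlr4*), while 7.75% of all genes tested were called higher and 19.5% lower. The median difference of the 10 was 0.77, against -0.54 for all genes. After rescaling, 6 rose (*Tlr6*, *Clec4d* and *Nod2* in addition) and none fell, beside 12.4% of genes higher and 6.23% lower. edgeR and DESeq2 on the recovered reads also called 6 higher and 0 lower. Against BM, 7 of the 10 rose in lung and none fell, with 9.86% of genes called higher and 36.0% lower. Those 7 were *Cd14*, *Clec4e*, *Clec4d*, *Tlr2*, *Clec7a*, *Nod2* and *Tlr6*, at differences of 8.34, 3.31, 2.53, 2.49, 2.05, 1.99 and 1.92. Rescaling raised that count to 9, with 19.6% of genes higher and 14.5% lower, and left *Tlr4* at -0.01 in place of -0.78. From BM to PB, 5 rose (*Cd14*, *Clec7a*, *Clec4d*, *Tlr6* and *Nod2*) and none fell, with 7.85% of genes called higher and 14.1% lower. All 10 were above BM at adjusted p alone, where 29.9% of genes were higher. The summed monocyte and macrophage markers were lowest in lung and highest in BM, while single markers differed in direction: of 7 tested between lung and BM, *Ly6c2*, *C1qa*, *C1qb* and *C1qc* were called lower in lung and *Adgre1* and *Csf1r* higher. From BM to PB the same 4 fell, and *Csf1r*, *Adgre1* and *Siglecf* rose. The part of these cells in the receptor values was not tested. Without PB library 3, which stood apart, 4 receptors were called between lung and PB and 6 between PB and BM.

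The order of the receptors by level changed with the tissue. In lung it ran *Cd14*, *Clec4d*, *Clec4e*, *Clec7a*, *Tlr2*, *Tlr13*, *Tlr6*, *Nod1*, *Nod2* and *Tlr4*, from means of 3899 to 8.37 FPKM, and no neighbours overlapped. In PB, *Clec4d* and *Clec7a* shared the top at 677 and 657 FPKM with overlapping libraries. *Clec4e*, *Cd14* and *Tlr13* followed at 171, 160.2 and 148, each overlapping the next, and *Nod2* was lowest at 7.90. In BM, *Clec4d* led at 224 FPKM, and *Cd14*, at 11.0, stood next to last and overlapped *Tlr6* at 12.0.

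The other genes of these pathways moved in both directions from PB to lung. Their lists were drawn up by function, with earlier results of these data known. Over all genes tested, 7.75% were called higher and 19.5% lower, and 12.4% and 6.23% after rescaling. Among 4 other TLRs tested, none rose and 1 fell: *Tlr5*, the flagellin receptor, at 2.32 to 2.48 FPKM in lung and 5.65 to 6.31 in PB. Among 8 other C-type lectin receptors, 1 rose and 1 fell. *Clec4n*, which encodes Dectin-2, a receptor for fungal mannan, was at 81.9 to 88.4 FPKM in lung and 30.7 to 34.1 in PB, and *Clec4a1* was at 5.76 to 6.14 in lung and 12.4 to 16.5 in PB. Neither *Tlr5* nor *Clec4a1* was called after rescaling, where they were at -0.55 and -0.57. Of 13 cytosolic sensors, 3 rose and 2 fell. *Nlrp3*, the inflammasome sensor, was at 664 to 681 FPKM in lung and 161 to 198 in PB. *Nlrc4*, the inflammasome protein of the NAIP receptors, was at 1.44 to 1.92 FPKM in lung and at 0.022 or less in PB. It passed the filter through its lung libraries alone, so that it had to differ and adds nothing to the count. *Mefv*, which encodes pyrin, was at 160.1 to 163 FPKM in lung and 61.9 to 76.6 in PB. *Nlrx1* fell by 1.93 ± 0.06 and *Nlrp12* fell by 1.87 ± 0.05. None of 8 TLR co-receptors and chaperones was called.

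Among 19 TLR adaptors and kinases, 2 rose and 4 fell, and the median was -0.53, beside -0.54 for all genes. After rescaling, 3 rose and 2 fell. *Irak2*, a kinase of the MyD88 complex, was at 189.9 to 196 FPKM in lung and 24.04 to 29.0 in PB, and *Ticam2*, the bridging adaptor of TLR4, was at 1.82 to 1.93 in lung and 0.42 to 0.45 in PB. *Irak4*, the first kinase of the MyD88 complex, fell by 1.62 ± 0.05, and *Ticam1*, the adaptor TRIF, was at 0.34 to 0.43 FPKM in lung and 2.48 to 3.12 in PB. *Ticam2* passed the filter through lung alone and *Ticam1* through PB alone, so neither adds to these counts. Of 11 adaptors and kinases of C-type lectin and NOD signalling, 3 rose and none fell: *Birc3* by 2.35 ± 0.06, *Malt1* by 2.00 ± 0.09 and *Birc2* by 1.32 ± 0.12. BIRC2 and BIRC3 are ubiquitin ligases on the NOD2-RIPK2 route, and MALT1 is the protease that acts with CARD9 and BCL10.

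Feedback inhibitors were called higher more often than the adaptors by count, a difference that was not tested. Of 11 tested, 7 rose and 1 fell, with a median of 1.14, beside 7.75% of all genes higher and 19.5% lower. After rescaling, 7 rose and none fell. *Nfkbie*, which encodes the NF-κB inhibitor IκBε, was at 400.3 to 409.6 FPKM in lung and 9.95 to 10.3 in PB, a rise of 5.19 ± 0.05. *Tnfaip3*, which encodes the ubiquitin editor A20, was at 726 to 751 in lung and 61.4 to 80.5 in PB, a rise of 3.33 ± 0.10. *Dok3* fell by 1.06 ± 0.10 and was at -0.44 after rescaling, where it was not called. All 10 tested targets of receptor signalling rose, with a median of 3.29, led by *Cxcl3* (777 to 806 FPKM in lung, 0.95 to 2.94 in PB) and *Cxcl1* (110.5 to 122 in lung, 0.24 to 0.74 in PB), which encode neutrophil-attracting chemokines. *Cxcl1* passed the filter through lung alone. *Cxcl3* also needed its lung libraries to pass, since PB reached down to 0.95 FPKM. Neither adds to the count of 10. The listed targets respond to many other signals as well.

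**Figure D3:**
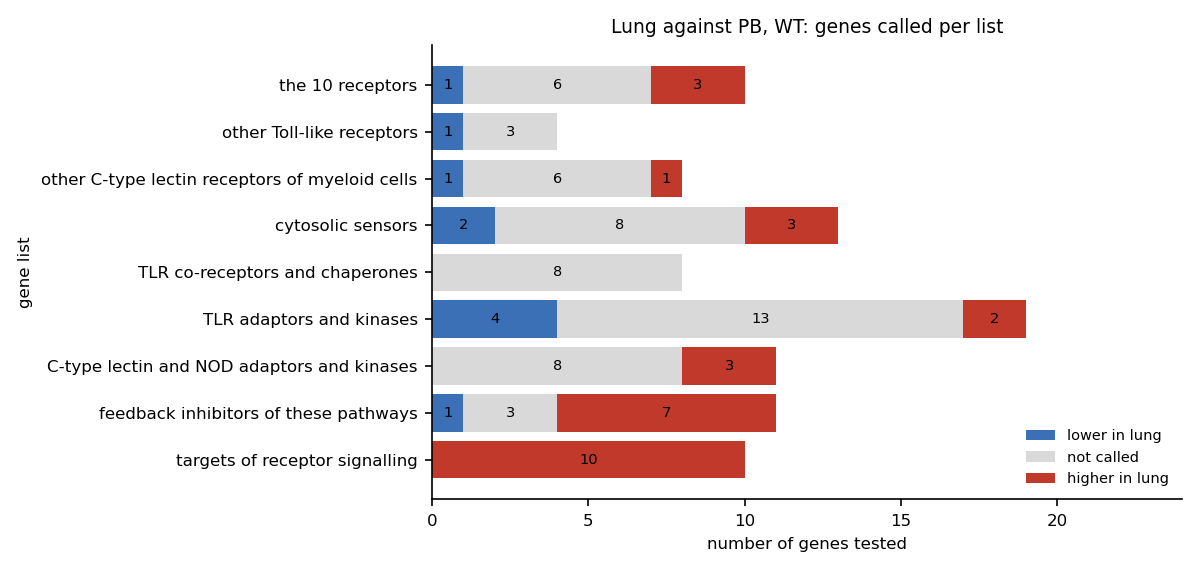
Number of genes called lower in lung, not called or called higher in lung against PB neutrophils of WT mice (limma, 3 against 3 libraries), for the 10 receptors and 8 lists of related genes. Feedback inhibitors (7 of 11) and targets of receptor signalling (10 of 10) hold the most genes called higher. Over all genes tested, 7.75% were called higher and 19.5% lower. The counts include genes that passed the filter on low values only through the tissue where they are high.

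The second experiment gave the lung-PB contrast again, in WT and in *Piezo1*-cKO mice. *Piezo1* itself rested on 3 to 10 reads in each of the 8 libraries of this experiment, at 0.057 to 0.058 FPKM in lung of WT mice and 0.030 to 0.051 with the cKO label, and in PB at 0.036 to 0.041 and 0.033 to 0.076, in that order. The genotypes overlapped in PB, and counts over the whole gene include exons outside the deleted part, so *Piezo1* could not check the genotype labels, and groups are named here by label. In WT libraries of this experiment, *Cd14* was at 5946 and 5976 FPKM in lung and 240.0 and 251 in PB. *Tlr2* was at 386 and 376 FPKM in lung and 70.4 and 71.3 in PB. *Clec4e* was at 1226 and 1251 in lung and 319 and 322 in PB. *Tlr4* was at 8.23 and 7.70 in lung and 22.6 and 22.2 in PB. Of the 10 receptors these 4 were called, *Cd14*, *Tlr2* and *Clec4e* higher and *Tlr4* lower in lung, with 7.50% of all genes higher and 26.5% lower. Differences were 4.60 ± 0.02 for *Cd14*, 2.41 ± 0.03 for *Tlr2*, 1.95 ± 0.02 for *Clec4e* and -1.39 ± 0.06 for *Tlr4* (n = 2 per group). *Tlr4* again kept its direction and lost the call after rescaling, at -0.71.

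After rescaling, 4 receptors were called higher (*Clec4d* in addition) and none lower, beside 13.5% and 9.09% of all genes. In *Piezo1*-cKO libraries, *Cd14*, *Tlr2* and *Clec4e* were called higher and *Tlr4* lower, with 7.93% of all genes higher and 23.0% lower. Rescaling left 5 higher, with *Tlr6* and *Clec4d* added, and none lower, beside 13.8% and 7.89% of all genes. *Cd14* was at 5762 and 5526 FPKM in lung and 198 and 169.8 in PB, and its difference was 4.94 ± 0.07. *Tlr2* differed by 2.52 ± 0.07, *Clec4e* by 2.22 ± 0.04 and *Tlr4* by -1.33 ± 0.07. *Tlr4* was at 7.74 and 7.75 in lung and at 21.6 and 20.5 in PB, and its difference was -0.75 after rescaling, not called. The *Cd14* to *Tlr4* ratio in lung was 749.6 ± 38.1 (SD, n = 2) in WT and 729 ± 22.3 in *Piezo1*-cKO mice. In PB it was 11.0 ± 0.50 and 8.73 ± 0.62, in that order. Other receptors were less alike between the experiments. The *Nod2* difference was 0.98 in the first experiment and 0.08 ± 0.07 in WT libraries of the second, where PB was at 15.1 and 16.1 FPKM and lung at 17.6 and 15.5. *Tlr6* differed by 0.61 in the first and by -0.10 ± 0.05 in the second, where lung was at 29.6 and 27.4 FPKM and PB at 31.0 and 30.0. After rescaling these values were 1.55 and 0.76 for *Nod2* and 1.22 and 0.61 for *Tlr6*. The difference between the experiments was not tested.

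**Figure D4:**
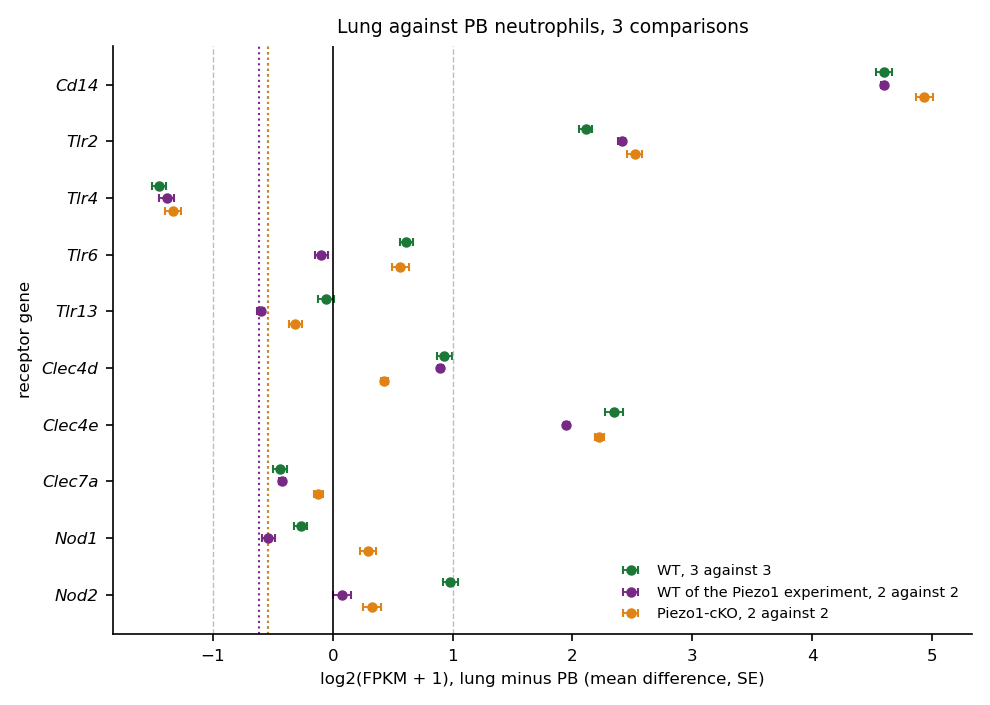
Lung minus PB difference in log2(FPKM + 1) of each receptor, with SE, in WT neutrophils of the tissue comparison, WT neutrophils of the *Piezo1* experiment and *Piezo1*-cKO neutrophils. Dashed lines mark the size threshold of 1 and dotted lines the median of all genes, between -0.62 and -0.54. *Cd14*, *Tlr2* and *Clec4e* lie above 1 and *Tlr4* below -1 in all 3 sets.

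The genotype comparison asks whether the receptors depend on the PIEZO1 channel. None of the 10 receptors was called in lung or in PB by limma, edgeR or DESeq2. Called genes were few in all, with 0.793% of genes higher and 0.202% lower in lung, and 1.68% higher and 1.97% lower in PB. At an unadjusted p below 0.05 there were 8 receptors in lung and 7 in PB (limma), beside 57.4% and 56.9% of all genes. At adjusted p alone, 5 were higher and 2 lower in *Piezo1*-cKO lung, beside 35.0% of all genes higher and 15.8% lower. In PB, 1 was higher and 6 were lower, beside 26.5% and 23.2% of all genes. This looser rule took in 50.7% of all genes in lung and 49.7% in PB. After rescaling it gave 2 receptors higher and 3 lower in lung, beside 23.6% and 25.1% of all genes.

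Sizes were small. In lung, the differences ran from -0.24 ± 0.02 for *Clec4d* to 0.32 ± 0.03 for *Tlr13*. *Clec4d* was at 2155 and 2132 FPKM in WT lung and 1829 and 1803 in *Piezo1*-cKO lung, and in PB it stood the other way, at 1132 and 1171 with the WT label and 1352 and 1342 with the cKO label. *Tlr13* was at 101 and 101 FPKM in WT lung and 129 and 123 in *Piezo1*-cKO lung. In PB, the differences ran from -0.64 ± 0.06 for *Nod1* to 0.23 ± 0.04 for *Clec4d*. *Nod1* was at 29.1 and 28.6 FPKM in PB of WT mice against 17.98 and 18.4 with the cKO label, whereas in lung it was at 18.9 and 20.3 in WT and 23.3 and 21.8 in *Piezo1*-cKO. *Tlr6* was at 31.0 and 30.0 FPKM in PB of WT mice against 23.2 and 20.6 with the cKO label, a difference of -0.46 ± 0.07. *Cd14* differed by -0.42 ± 0.07 in PB and by -0.08 ± 0.02 in lung. WT and *Piezo1*-cKO libraries did not overlap for any value given here, as in 76.6% of all genes in lung and 77.3% in PB. The *Piezo1*-cKO PB libraries were those with the erythroid markers at 910 to 972 FPKM, and 1 of them was the shallowest of the series at 9621002 reads. The part of these in the PB differences was not tested.

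The genotype effect in lung minus that in PB was tested as an interaction over the 8 libraries, called at adjusted p alone. It was called for 7 of the 10 receptors, beside 48.2% of all genes tested. Of the 7, 6 were above 0 and 1 below, beside 29.7% and 18.5% of all genes. *Nod1* led at 0.83 ± 0.08 (adjusted p = 0.00015, limma), then *Tlr6* at 0.66 ± 0.09 (adjusted p = 0.000725, limma). *Cd14*, *Clec7a*, *Tlr13* and *Clec4e* lay between 0.28 and 0.34. *Clec4d* was the exception in sign, at -0.47 ± 0.03 (adjusted p = 5.73e-05, limma), the receptor that was lower in *Piezo1*-cKO lung and higher in *Piezo1*-cKO PB. The values for *Tlr2*, *Tlr4* and *Nod2* were 0.11, 0.05 and 0.25, with adjusted p of 0.27, 0.63 and 0.085 (limma). With a size threshold of 1, none was called. After rescaling, 6 receptors were called, 5 of them above 0, beside 22.8% of all genes above 0 and 25.6% below, and *Cd14* was the one lost. None of the pathway lists had a member called between the genotypes in lung on the FPKM scale. In PB, 1.68% of all genes were called higher and 1.97% lower. There *Tlr7*, *Clec4a1* and *Tab1* rose and *Clec1b* fell, and 3 of 9 targets of receptor signalling fell: *Cxcl3* by 1.53 ± 0.13, *Cxcl2* by 1.47 ± 0.04 and *Ptgs2* by 1.37 ± 0.08. *Clec1b* and *Cxcl3* passed the filter through the WT libraries alone, so neither adds to these counts. The part of the erythroid markers and of depth in these PB differences was not tested.

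**Figure D5:**
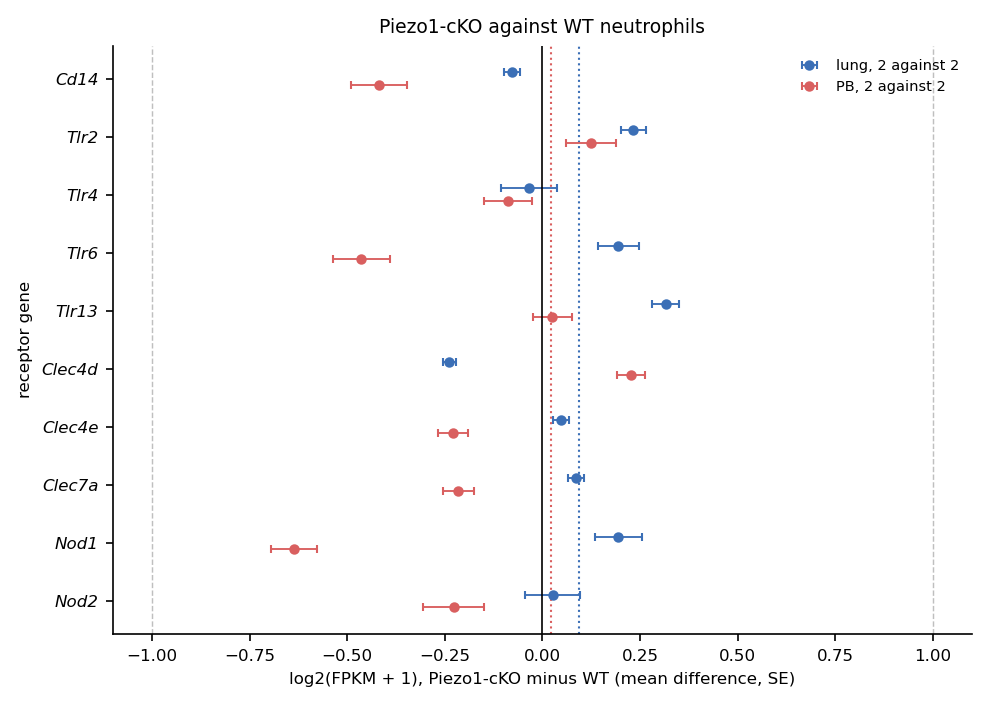
*Piezo1*-cKO minus WT difference in log2(FPKM + 1) of each receptor, with SE, in lung and in PB neutrophils (2 against 2 libraries each). Dashed lines mark the size threshold of 1, which no receptor reached, and dotted lines the median of all genes. *Clec4d* is the receptor below 0 in lung and above 0 in PB.

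In whole lung, none of the 9 receptors tested was called between neutrophil-depleted and control mice. *Clec4e*, at 0.32 to 0.86 FPKM in the 6 libraries, did not pass the filter on low values. Across all 13990 genes tested 0.00715% were called (1 gene), and 2 of the 9 receptors had an unadjusted p below 0.05 (limma), beside 11.2% of all genes. The count tools could not be used on this table. The 7 neutrophil markers summed to 197 to 255 FPKM in control lungs and 38.3 to 116 in depleted lungs, without overlap, and fewer neutrophils and less RNA per neutrophil cannot be told apart in bulk tissue. Of these 7 markers, 6 were tested and 0 were called, at a median difference of -1.41. The test thus did not call the markers of the depleted cells either. Its lack of receptor calls does not show that receptor levels stayed the same. The study itself reports many genes affected by the depletion. *Ly6g*, the target of the antibody, was at 0.068, 0.58 and 0.071 FPKM in control lungs and 0.075, 0 and 0.12 in depleted lungs, which overlapped.

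*Clec7a* was the most abundant receptor in whole lung, at 35.5, 36.5 and 42.5 FPKM in control and 31.1, 31.4 and 18.8 in depleted lungs, a difference of -0.51 ± 0.20 (adjusted p = 0.40, limma) without overlap. Non-overlap was seen in 17.4% of all genes tested. *Cd14* was at 20.9, 26.6 and 27.4 FPKM in control and 27.7, 22.0 and 23.5 in depleted lungs, with overlap. *Clec4d* was at 1.88, 1.82 and 1.90 in control and 1.89, 0.24 and 0.80 in depleted lungs, a difference of -0.62 ± 0.28 (adjusted p = 0.47, limma). *Tlr4* was at 0.91, 4.41 and 0.82 FPKM in control and 5.40, 5.94 and 4.98 in depleted lungs, a difference of 1.28 ± 0.40 (adjusted p = 0.30, limma) in which control library 2 stood near the depleted lungs. Without control library 2, the difference was 1.79 and was called (adjusted p = 0.018, limma). The remaining 5 receptors, *Tlr2*, *Tlr6*, *Tlr13*, *Nod1* and *Nod2*, differed by -0.37 to -0.02, and their groups overlapped.

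Across the 17 sorted libraries, with each experiment centred on its own mean, the receptors fell along several courses. These correlations are descriptions: the points share tissues and libraries, and the tissue steps set them. *Cd14* ran with *Clec4e* (r = 0.99) and *Tlr2* (r = 0.94), and against *Tlr4* (r = -0.73). *Tlr6* ran with *Nod2* (r = 0.97) and *Clec4d* (r = 0.94). *Clec7a* ran with *Tlr13* (r = 0.86) and *Nod1* (r = 0.82). Among 4846 genes with a mean of 5 FPKM or more, *Zfp263*, *Gpr35* and *Cd274* had the courses most like that of *Cd14* (r = 0.998, 0.998 and 0.997), and *Gadd45b*, *Hdc* and *Ccnl1* those most like that of *Clec4e* (r = 0.998, 0.998 and 0.997). The nearest genes were *Il23a* for *Tlr2* (r = 0.997), *Vgll4* for *Tlr4* (r = 0.997), *Spata13* for *Tlr6* (r = 0.986), *Srgn* for *Clec4d* (r = 0.994), *Wfdc17* for *Clec7a* (r = 0.997), *H2-K1* for *Nod2* (r = 0.991), *Ugt1a7c* for *Tlr13* (r = 0.964) and *Iqsec1* for *Nod1* (r = 0.959).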

How the data were processed

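RNA-Seq of 17 libraries of sorted mouse neutrophils and 6 of whole lung was used. The authors trimmed reads with fastp, aligned them to mm10 with HISAT2, counted them per gene with HTSeq and deposited FPKM values. Versions, strand settings and the treatment of multi-mapped reads were not given in the sources used here. The labels name a SMARTER kit with poly(A) enrichment and the study's methods another kit. For lung neutrophils of the *Piezo1* experiment the authors also deposited a signal per group, the mean of counts divided by size factors, used only to check the recovered reads: it was rebuilt within a relative tolerance of 1e-06 for 98.6% or more of genes above 0. Columns of the authors' own comparisons (fold changes, p-values and q-values) were not used.

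Every FPKM value of the sorted libraries came out as a whole number of reads (100% of values, tolerance 0.02 reads), which edgeR 4.0.16 and DESeq2 1.42.0 then tested as alternatives. In lung against PB, the main test called 2063 of 7577 genes, and edgeR on these reads called 1930. The main test was limma 3.58.1 (trend and robust) in R 4.3.3 on log2(FPKM + 1), a scale that understates changes of low genes, with FPKM of at least 1 in 3 libraries (2 in the *Piezo1* experiment) and Benjamini-Hochberg adjustment over all genes. A call needed adjusted p below 0.05 and a difference above 1 (0.5 in whole lung, adjusted p alone for the interaction). In the rescaled alternative each library was divided by its median ratio to the geometric mean of the libraries. Other alternatives were a pseudocount of 0.1, no filter, edgeR's RLE scaling, a replicate block, all libraries of an experiment in 1 fit and leaving out each library.

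The 10 receptors were named throughout. Of each pathway list, up to 2 genes with the largest rise and 2 with the largest fall between lung and PB were named, or all called genes where 5 or fewer were. The receptors and lists were chosen with earlier results of these data known. The whole-lung table holds no counts, so the depth of single libraries was not computed. The methods give only an approximate read number that is common to all bulk samples. Positions are from GENCODE vM21 (GRCm38), and promoters from RefSeq (GRCm38.p6).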

Additional observations from a re-analysis of the deposited data

Results flagged for a closer look

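For 7 of the 10 receptors, the effect of the *Piezo1*-cKO genotype in lung neutrophils differed from that in PB neutrophils by the interaction test over 8 libraries (limma, called at adjusted p alone). The effect in lung minus that in PB, on the log2(FPKM + 1) scale, was 0.83 for *Nod1*, 0.66 for *Tlr6*, 0.34 for *Cd14*, 0.30 for *Clec7a*, 0.29 for *Tlr13*, 0.28 for *Clec4e* and -0.47 for *Clec4d*. The same test was passed by 48.2% of all genes. The value for *Cd14* was lost after rescaling (0.21, adjusted p = 0.0672) and with DESeq2 (0.23, adjusted p = 0.0846). Both *Piezo1*-cKO PB libraries carried erythroid markers at 910 to 972 FPKM, against 20.95 or less in the other libraries of that experiment. The part of these markers and of depth in the 7 values was not tested.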

How the results depend on the processing

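Of the values for single receptors under other settings, 590 kept their direction and side of the threshold, 76 passed it newly, 21 lost it and 58 changed sign. Leaving out 1 library gave 450, 6, 3 and 12. At adjusted p alone, without the size threshold, the receptors called numbered 9 in lung against PB (beside 85.5% of all genes), 10 in PB against BM (73.1%), 7 in each genotype comparison (50.7% in lung, 49.7% in PB), and 8 in WT (89.0%) and 10 in *Piezo1*-cKO (84.5%) lung against PB of the *Piezo1* experiment. With a size threshold of 1 the interaction called 0. In whole lung, leaving out 1 library gave 0 to 1 receptors called, the 1 being *Tlr4* without control library 2. *Tlr4* kept its direction but lost its call between lung and PB under rescaling, edgeR and DESeq2 in all 3 comparisons.

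Sign changes follow on the log2 scale, in the order rescaled FPKM, edgeR TMM, DESeq2 and edgeR RLE unless named, equal values once. Between lung and PB of WT mice, the sign turned for *Tlr13* at 0.56 and 0.58, and -0.10 to 0.016 with 1 library left out, *Clec7a* at 0.18 and 0.20 and *Nod1* at 0.34, 0.35 and 0.37. Between lung and BM, the sign turned for *Tlr4* at 0.0036 (DESeq2, edgeR RLE). Between the genotypes in lung, the sign turned for *Tlr4* -0.078 to 0.0079 with 1 library left out, *Clec4e* at -0.065, -0.066 and -0.064, *Clec7a* at -0.026, -0.027 and -0.025 and *Nod2* at -0.081, -0.088, -0.087 and -0.086, and -0.0601 to 0.11 with 1 library left out. Between the genotypes in PB, the sign turned for *Tlr13* at -0.0063 (edgeR TMM), and -0.027 to 0.077 with 1 library left out. Between WT lung and PB of the *Piezo1* experiment, the sign turned for *Tlr6* at 0.61, 0.62 and 0.65, *Tlr13* at 0.12, 0.11 and 0.14, *Clec7a* at 0.31, 0.30 and 0.32, *Nod1* at 0.16 and 0.19 and *Nod2* -0.0087 to 0.16 with 1 library left out. Between *Piezo1*-cKO lung and PB, the sign turned for *Tlr13* at 0.31 and 0.34 and *Clec7a* at 0.51, 0.50 and 0.53. For the interaction, the sign turned for *Tlr2* at -0.017 and -0.0026 (rescaled, DESeq2) and *Tlr4* at -0.061, -0.027 and -0.058 (rescaled, edgeR TMM, DESeq2). In whole lung, the sign turned for *Cd14* at 0.021 (rescaled), and -0.15 to 0.039 with 1 library left out, *Tlr2* -0.24 to 0.026 with 1 library left out and *Nod1* at 0.029 (rescaled), and -0.19 to 0.085 with 1 library left out.

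Replicate numbers gave no sign of pairing: correlations of the deviations of same-numbered libraries ran from -0.084 to 0.075. Such values cannot show whether same-numbered libraries came from the same mouse. With a replicate block the receptors called numbered 4, 7 and 5 in the tissue comparisons, 0 in both genotype comparisons, 4 in WT and 4 in *Piezo1*-cKO lung against PB, 7 for the interaction and 0 in whole lung, which changed no call. Over all genes, calls between the genotypes moved from 64 in lung to 332 with a pseudocount of 0.1, 345 with edgeR and 311 with DESeq2, and from 265 in PB to 672, 739 (738 with RLE) and 689. WT lung against PB of the *Piezo1* experiment went from 2429 to 1582 after rescaling, the interaction from 3647 to 5509 without the filter, and whole lung from 1 to 0 without it, 4 with the other pseudocount and 5 with the block. The causes of these changes were not tested. Leaving each group of 2 with 1 library assumes that the lone library varies like the others. In the sorted libraries each receptor rested on 282 reads or more, whereas *Clec4e* in whole lung was too low to test. The effect of unequal depth between libraries was not tested.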
